A study of Mus musculus with 6 samples.

Results

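The ISG15 conjugation system and a set of interferon-induced antiviral effectors were examined in the RNA of peritoneal macrophages (PEMs) from mice that lacked Tim-4 in myeloid cells and from their controls. The genes were taken by symbol from a list of 10, and 8 of the 10 matched a row among the 15415 genes of the table. These were *Isg15*, *Uba7*, *Ube2l6*, *Herc6* and *Usp18* of the conjugation system, and *Rsad2*, *Cmpk2* and *Bst2* of the effectors. *Mx1* and *Mx2* were not analysed here. All 8 genes were above a mean of 1 FPKM in both groups, so that none entered the 9030 tested genes through its level in a single group.

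Of the 6 libraries, 3 were of the genotype LysM-Cre; *Tim-4* fl/fl (conditional knockout, CKO libraries 1 to 3) and the other 3 of the genotype *Tim-4* fl/fl (control libraries 1 to 3). The mice were C57BL/6J males of 6 to 8 weeks, and all carried the floxed *Tim-4* allele, made with a vector that covered introns 1 to 3 and carried loxP sites. The CKO mice alone carried Cre, which is expressed from the lysozyme gene *Lyz2* in myeloid cells at large and not in macrophages only, so the Cre allele and the loss of Tim-4 cannot be told apart. PEMs were elicited with 6% starch for 3 days, and the labels give LPS, a bacterial outer membrane component, as the treatment of all 6 libraries. The methods of the study describe 1 μg/ml LPS for 3.5 hours for macrophage activation without naming the sequenced cells, and no library without LPS was analysed here. The genotypes in the labels are swapped relative to the library titles, and the titles were followed here. Nothing in the sources says whether a library came from 1 mouse or from a pool, so the tests measure the spread between these libraries.

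ISG15 is a small protein built like ubiquitin, and cells make it in response to type I interferon. It is joined to other proteins by an enzyme chain of its own, in which UBA7 (the E1) activates it, UBE2L6 (the E2) carries it, and HERC6 (the E3 in the mouse) places it on its targets. USP18 takes ISG15 off again and also binds the interferon receptor subunit IFNAR2, where it dampens the response. In macrophages LPS acts through TLR4 and TRIF to induce interferon-β, which signals back through IFNAR1 and IFNAR2 to ISGF3, a complex that holds STAT2 and IRF9. ISGF3 binds the interferon-stimulated response element (ISRE) in the promoters of such genes. Of the effectors, *Rsad2* encodes viperin, an enzyme that turns CTP into a chain-terminating nucleotide. *Cmpk2* encodes a mitochondrial nucleotide kinase and lies next to *Rsad2* on the chromosome, and *Bst2* encodes tetherin, which holds budding virus particles on the cell surface.

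RefSeq promoter windows (GRCm38.p6, 250 bases before to 50 bases after the annotated start) were found for 7 of the 8 genes. Each was searched on both strands for the ISRE core GAAANNGAAA and for TTCNNNGAA, the GAS element, another sequence of interferon responses. The 3 windows that held the ISRE core are printed from 5′ to 3′ on the strand of the gene because they show how the letters of the interferon response differ between members, with every base of a core match in capitals. They lie at chr4:156200769-156201068 on the minus strand for *Isg15*, at chr8:71537423-71537722 on the minus strand for *Bst2* and at chr12:26456403-26456702 on the minus strand for *Rsad2*.
Isg15: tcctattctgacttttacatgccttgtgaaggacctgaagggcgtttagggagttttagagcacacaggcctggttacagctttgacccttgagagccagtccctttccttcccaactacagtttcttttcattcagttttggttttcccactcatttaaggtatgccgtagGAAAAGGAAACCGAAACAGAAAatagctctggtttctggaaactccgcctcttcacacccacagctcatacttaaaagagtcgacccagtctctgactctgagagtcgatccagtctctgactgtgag
Bst2: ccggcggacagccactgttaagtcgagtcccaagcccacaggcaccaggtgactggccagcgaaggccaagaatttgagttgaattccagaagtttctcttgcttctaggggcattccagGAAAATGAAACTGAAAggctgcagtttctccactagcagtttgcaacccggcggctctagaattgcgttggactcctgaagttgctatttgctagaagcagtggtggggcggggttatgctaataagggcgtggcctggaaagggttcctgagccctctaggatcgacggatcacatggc
Rsad2: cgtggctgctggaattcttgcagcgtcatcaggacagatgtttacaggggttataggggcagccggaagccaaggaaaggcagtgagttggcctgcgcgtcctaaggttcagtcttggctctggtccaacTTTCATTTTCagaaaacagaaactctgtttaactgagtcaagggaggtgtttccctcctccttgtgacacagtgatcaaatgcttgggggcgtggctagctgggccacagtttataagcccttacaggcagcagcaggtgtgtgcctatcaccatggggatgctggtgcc

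The *Isg15* window held 3 overlapping copies of the core, beginning 78, 72 and 66 bases before the start. The *Bst2* window held 2 overlapping copies, at 130 and 124 bases before the start, and the only GAS match among the members, which began at 136 bases and ran into the first of them. The *Rsad2* window held 1 copy on the opposite strand, at 120 bases before the start. No match to the core was found in the windows of *Uba7*, *Ube2l6*, *Herc6* and *Cmpk2*, which says only that these letters are not in these stretches. Over all 32851 windows in the table, 3.44% held the ISRE core and 8.30% held the GAS letters. A match to the core did not order the members by their response, since *Rsad2* with 1 copy had the largest fold change, *Cmpk2* with none was next to it, and *Isg15* with 3 copies was among the smaller ones. This comparison was chosen after the values were seen.

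**Figure D1:**
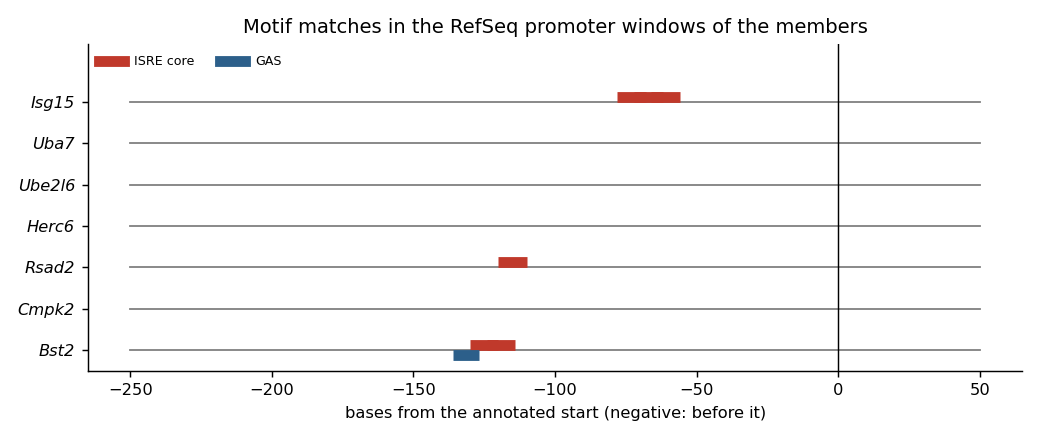
Positions of the ISRE core (red) and of the GAS letters (blue) in the promoter windows of 7 genes, in bases from the annotated start (x axis). The matches of *Isg15* lie nearest the start and those of *Bst2* farthest from it, and 4 windows hold no match.

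*Timd4*, the gene of Tim-4, measured 0.333, 0.394 and 0.246 FPKM in CKO libraries 1 to 3 and 19.5, 12.0 and 1.19 FPKM in the controls. The groups did not overlap, but control library 3 was much nearer to the CKO level than the other controls (log2 fold change -2.66, limma adjusted p = 0.0715, and 0.0436 with the replicate number as a block). Without control library 3 its log2 fold change was -3.63 (limma adjusted p = 0.000405). With a pseudocount of 0.1 it was -4.005 (adjusted p = 0.0458), and with voom on the recovered reads -4.18 (adjusted p = 0.218). *Lyz2* measured 41.4, 4656 and 106 FPKM in the CKO libraries and 7090, 7171 and 8482 FPKM in the controls, so CKO library 2 kept much of it. The libraries held between 36170767 and 42217558 reads on listed genes, and control library 3 was the shallowest. Of 8 macrophage markers, *Adgre1* (F4/80), *Csf1r*, *Cd68*, *Itgam* and *Cd14* were at 83.3 FPKM or more in every library, while *Mertk* was between 0.821 and 12.1 FPKM. *Fcgr1* was the 1 that passed, at 36.1 to 57.5 FPKM in the CKO libraries and 5.16 to 6.58 FPKM in the controls (log2 fold change 2.82, limma adjusted p = 0.0015). *Csf1r* and *Cd14* were lower, and *Cd68* higher, in all CKO libraries than in all controls, with adjusted p between 0.0631 and 0.0989.

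All 8 genes had a higher mean in the CKO libraries, with log2 fold changes from 0.57 to 1.66 and a median of 0.87, against a median of -0.11 over all 9030 tested genes. A log2 fold change here is the difference of mean log2(FPKM + 1), where FPKM is the number of reads corrected for gene length and library size. None of the 8 passed an adjusted p of 0.05 in limma over all tested genes, a threshold that 2.57% of the tested genes passed upward. Of all 660 genes past it 232 were higher, against 342 of 662 after rescaling by the median of ratios and 298 of 589 with voom. The adjusted p lay between 0.0724 and 0.205. At an unadjusted p of 0.05 there were 7 of 8 members, against 9.93% of all tested genes in this direction. In 6 of the 8 all CKO libraries were above all controls, against 11.1% of the tested genes, and exact permutation tests on 3 against 3 libraries cannot give a two-sided p below 0.1. Since the members had been listed with results of these data known, these shares describe them and are not a test. The libraries are bulk samples, in which fewer cells of a type and less RNA per cell cannot be told apart.

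*Isg15*, the modifier itself (Entrez 100038882), measured 975, 1072 and 827 FPKM in CKO libraries 1 to 3 and 776, 654 and 371 FPKM in control libraries 1 to 3. The groups did not overlap, but CKO library 3 and control library 1 were close to each other. The means were 958 ± 123 and 600 ± 208 FPKM (SD, n = 3 each), and the log2 fold change was 0.73 (standard error 0.27, limma adjusted p = 0.14). *Isg15* ranked 68 among the 9030 tested genes by mean FPKM, so that the modifier was among the most abundant transcripts of these cells. Its gene overlaps the predicted gene *Gm46878* in the reference, and whether the counting used strand is not given in the sources used here.

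*Uba7*, the E1 enzyme, was the least abundant member, at 48.3, 42.4 and 31.2 FPKM in the CKO libraries, against 31.8, 22.2 and 10.3 FPKM in the controls. The groups touched, since control library 1 was just above CKO library 3. Its log2 fold change was 1.0 (standard error 0.38, limma adjusted p = 0.142), the largest of the 3 conjugating enzymes, and with the replicate number as a block it passed the threshold (adjusted p = 0.0389). *Ube2l6*, the E2 enzyme, was at 123, 124 and 106 FPKM against 93.9, 83.8 and 61.5 FPKM. These groups stood apart, and the members' smallest log2 fold change of 0.57 came with their smallest standard error, 0.18 (limma adjusted p = 0.0967). *Herc6*, the E3 enzyme, was at 68.8, 72.4 and 52.4 FPKM against 53.7, 50.1 and 26.5 FPKM. CKO library 3 was below control library 1 here, and *Herc6* was the only member whose 95% confidence interval held 0 (log2 fold change 0.61, from -0.04 to 1.26, limma adjusted p = 0.205).

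*Usp18*, the enzyme that removes ISG15, was at 298, 277 and 213 FPKM in the CKO libraries, against 187, 139 and 53.2 FPKM in the controls. The groups did not overlap, and control library 3 was far below the other controls. The log2 fold change of 1.21 (standard error 0.43) was the largest within the conjugation system. Its adjusted p of 0.126 in limma became 0.0459 with the replicate block. The reference places the predicted gene *Gm44148* over part of *Usp18*, so reads of the pair could have been shared.

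*Rsad2* (viperin, Entrez 58185) was the most abundant and the most changed member. Its level was 2586, 3103 and 1751 FPKM in CKO libraries 1 to 3, whereas control libraries 1 to 3 had 1227, 1025 and 357 FPKM. The lowest CKO library was above the highest control library. The log2 fold change was 1.66 (standard error 0.46, 95% confidence interval from 0.57 to 2.74), place 34 of the 9030 tested genes from the highest. Its adjusted p of 0.0724 in limma fell short of the threshold and became 0.0210 with the replicate block. *Cmpk2*, its neighbour, was at 789, 1038 and 616 FPKM against 428, 346 and 118 FPKM, again without overlap. Its log2 fold change of 1.61 (standard error 0.47, limma adjusted p = 0.0792) was at place 39, and the block gave an adjusted p of 0.0290. With the block, *Uba7*, *Usp18*, *Rsad2* and *Cmpk2* rose past the threshold, which made 4 of 8 members against 3.9% of all tested genes called upward in that fit. The pairing by number rests only on the correlations given with the processing, so calls made with the block are conditional on it.

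*Bst2* (tetherin) was at 249, 263 and 240 FPKM in the CKO libraries, against 212, 157 and 102 FPKM in the controls. The CKO libraries lay within 0.13 of each other on the log2 scale, the narrowest range of any member in that group, while the controls spread over 1.05. The log2 fold change was 0.73 (standard error 0.25, limma adjusted p = 0.118). *Bst2* is known to mark plasmacytoid dendritic cells in mice at rest. *Siglech*, a defining marker of those cells, was at 0.054 FPKM or less in every library. Of the other markers on that list *Il3ra* and *Irf8* had log2 fold changes of 0.54 and 0.48 (limma adjusted p = 0.114 and 0.213), *Cox6a2* and *Spib* of -1.08 and -1.86 (adjusted p = 0.103 and 0.0216), and *Ccr9* and *Pacsin1* stayed below 1 FPKM. Their part in the level of *Bst2* was not tested.

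**Figure D2:**
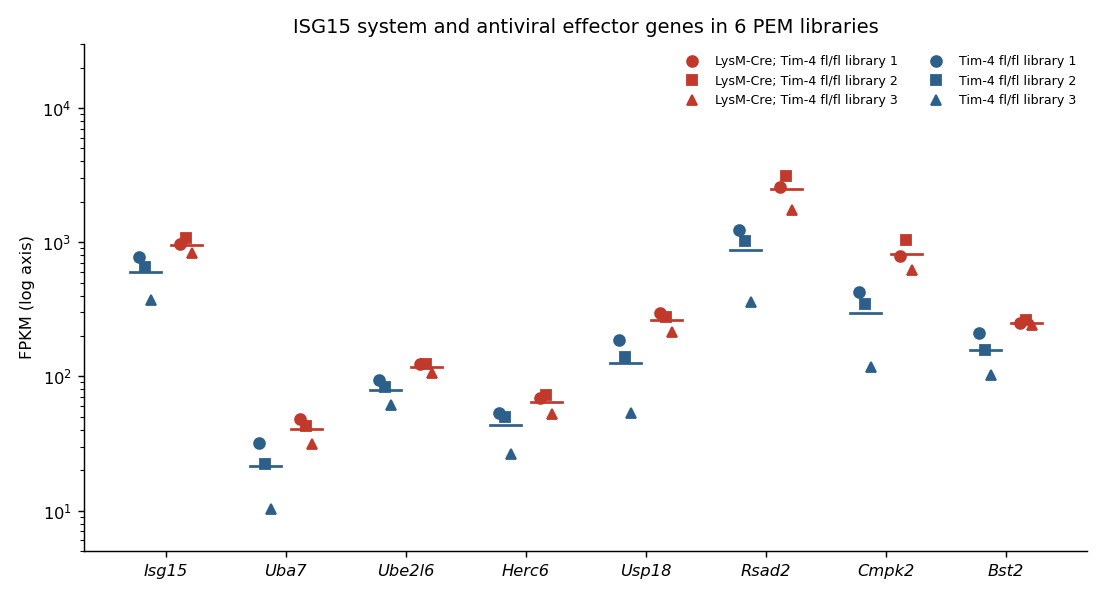
FPKM of the 8 genes (y axis, logarithmic) in 3 control libraries (blue) and 3 CKO libraries (red), with the library number as the shape and a line at the group mean. Control library 3 (blue triangle) is the lowest of the 6 libraries for every gene, and *Herc6* and *Uba7* are the genes whose groups overlap.

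The 8 genes together took 1.45%, 1.73% and 1.03% of the reads in CKO libraries 1 to 3 and 0.761%, 0.630% and 0.244% in control libraries 1 to 3. Each of these shares had a 95% Wilson interval no more than 0.00786 percentage points wide, which covers counting error only. Counting error was thus small beside the spread between libraries, and *Rsad2* alone made up most of each share, from 0.135% in control library 3 to 1.17% in CKO library 2. The fewest reads on any member in a library were the 1180 on *Uba7* in control library 3.

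By level per gene length, the order in the CKO libraries was *Rsad2*, *Isg15*, *Cmpk2*, *Usp18*, *Bst2*, *Ube2l6*, *Herc6* and *Uba7*, from 2480 ± 682 down to 40.6 ± 8.69 FPKM (SD, n = 3). *Usp18* and *Bst2* were at 263 ± 44.5 and 250.6 ± 11.4 FPKM and were not in the same order in every library. The ranges of *Isg15* and *Cmpk2* overlapped too. The other neighbours in this order did not overlap. In the controls *Bst2* came before *Usp18*, at 157 ± 55.1 against 127 ± 67.9 FPKM, and *Ube2l6* and *Herc6* were the only neighbours whose ranges stood apart. *Rsad2* and *Isg15*, far apart in the CKO libraries, were at 869 ± 455 and 600 ± 208 FPKM in the controls, and in control library 3 *Isg15* was the higher of the pair.

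Ratios between members of the conjugation system were compared next, in a design that cannot reach a p of 0.05. *Usp18* was at 0.306, 0.258 and 0.257 of the FPKM of *Isg15* in the CKO libraries and at 0.241, 0.213 and 0.143 of it in the controls. The groups did not overlap in this ratio, with a difference of 0.48 on the log2 scale (two-sided exact permutation p = 0.1, which is the lowest possible here, and 0.267 after Benjamini-Hochberg adjustment over the 4 pairs compared). The ratio of *Uba7* to *Ube2l6* was 0.394, 0.341 and 0.295 against 0.339, 0.264 and 0.168, a log2 difference of 0.43 with overlapping groups (exact permutation p = 0.2). *Herc6* kept to between 0.0633 and 0.0766 of *Isg15* in all 6 libraries, with a log2 difference of -0.12 between the groups (exact permutation p = 0.2).

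*Cmpk2* and *Rsad2* kept the most even ratio. The FPKM of *Cmpk2* was between 0.305 and 0.352 of that of *Rsad2* in every library, while *Rsad2* itself ranged over 8.7-fold. The log2 difference of this ratio between the groups was -0.04, with group means of -1.60 ± 0.10 and -1.56 ± 0.04 (SD, n = 3 each; exact permutation p = 0.7).

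Over the 3 controls the members ranged over a median of 1.30 on the log2 scale, against 0.43 for all tested genes, and over the 3 CKO libraries the medians were 0.47 and 0.26. In all 8 members the controls spread more widely than the CKO libraries, as they did in 73.8% of the tested genes. Control library 3 was the lowest of the 6 libraries in 8 of 8 members and in 13.3% of the tested genes. Control library 1 was the highest control in 8 of 8 (22.4% of the tested genes), and CKO library 3 was the lowest CKO library in 8 of 8 (20.02%). All 3 positions held together in 8 of 8 members and in 5.79% of the tested genes.

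Since control library 3 stood apart in *Timd4* as well, the comparison was repeated without it. The log2 fold changes then shrank to between 0.30 for *Herc6* and 1.11 for *Rsad2*, with all 8 still above 0. *Rsad2* (adjusted p = 0.0313 in limma) and *Cmpk2* (adjusted p = 0.0295, log2 fold change 1.05) passed the threshold in this fit, in which 5.87% of the tested genes were called upward. Without control library 1 the fold changes grew, to between 0.70 for *Ube2l6* and 1.99 for *Rsad2*. *Rsad2*, *Cmpk2* and *Bst2* passed (adjusted p = 0.0469, 0.0468 and 0.0409 in limma), where 3.06% of the tested genes were called upward. None of the 8 passed without control library 2 or without any single CKO library. Without CKO library 2, the one that kept *Lyz2*, the log2 fold changes were between 0.52 for *Herc6* and 1.47 for *Rsad2* (lowest adjusted p = 0.252, for *Rsad2*, in limma).

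**Figure D3:**
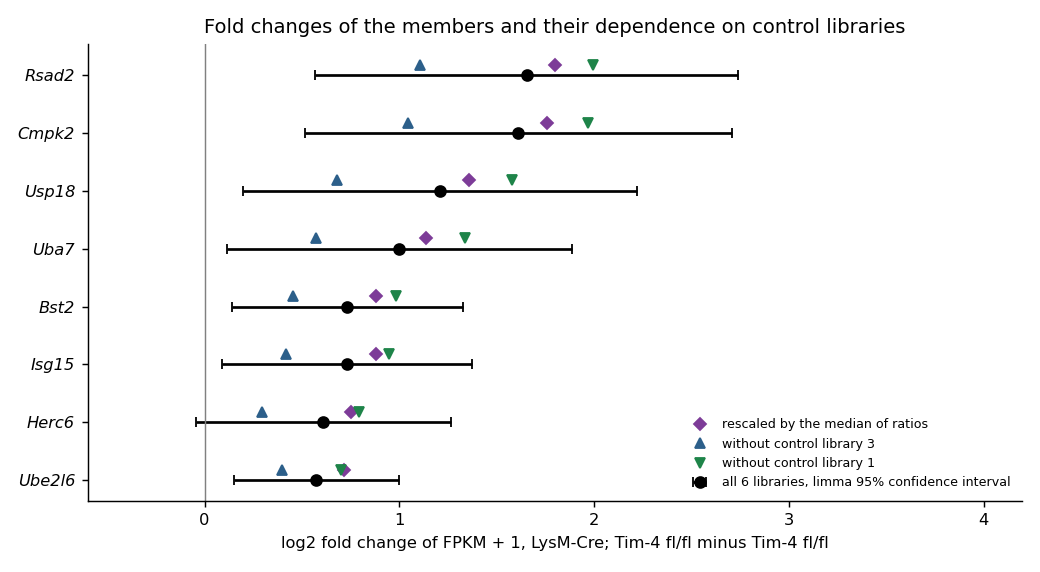
Log2 fold changes of the 8 genes (x axis, CKO minus control) with all 6 libraries and their 95% confidence intervals from limma (black), after rescaling by the median of ratios (purple), without control library 3 (blue) and without control library 1 (green). *Rsad2* and *Cmpk2* have the largest values in each, and every point lies above 0.

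The genes that make up the interferon signal were examined next. *Ifnb1*, the gene of interferon-β, was at 0.587, 0.831 and 1.14 FPKM in the CKO libraries (19, 27 and 36 reads) and at 0.197, 0.200 and 0.215 FPKM in the controls (6 reads in each). These groups did not overlap. Neither group mean of *Ifnb1* reached 1 FPKM, so it was not among the tested genes. In the fit without a filter on low values, where 0.915% of all genes were called upward, its log2 fold change was 0.61 (limma adjusted p = 0.0464). Adding 1 shrinks a fold change at FPKM this low. The mean was 0.853 FPKM in the CKO libraries and 0.204 FPKM in the controls, a ratio of 4.18. The order of *Ifnb1* among the libraries was not that of the members, since it was highest in CKO library 3, where all 8 members were lowest of their group, and differed little between the controls. With 19 to 36 reads in the CKO libraries and 6 in each control, its order within a group is uncertain. *Ifnar1* and *Ifnar2*, the receptor subunits, had log2 fold changes of 0.10 and 0.01 (limma adjusted p = 0.601 and 0.95), and the second changed its sign without CKO library 1, control library 2 or control library 3.

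*Stat2*, which encodes a subunit of ISGF3, rose. It was at 98.8, 84.6 and 75.6 FPKM in the CKO libraries, against 51.2, 36.5 and 23.3 FPKM in the controls, with no overlap and a log2 fold change of 1.26 (standard error 0.27, limma adjusted p = 0.0383). It did not pass after rescaling by the median of ratios (adjusted p = 0.0523), nor without a filter on low values (0.0695), with voom (0.0562), or without control library 2 or any single CKO library. *Irf9* was between 34.0 and 37.2 FPKM in the CKO libraries and between 28.3 and 34.6 FPKM in the controls (log2 fold change 0.17, limma adjusted p = 0.426). *Irf7*, an interferon-induced factor that amplifies interferon production, was at 320, 317 and 238 FPKM against 240, 159 and 66.3 FPKM (log2 fold change 1.08, limma adjusted p = 0.16). Its log2 fold change was 0.56 without control library 3 and 1.48 without control library 1 (adjusted p = 0.137 and 0.054 in limma). *Irf3*, which is present before stimulation, was between 6.32 and 9.16 FPKM in all libraries (log2 fold change -0.17, limma adjusted p = 0.495).

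**Figure D4:**
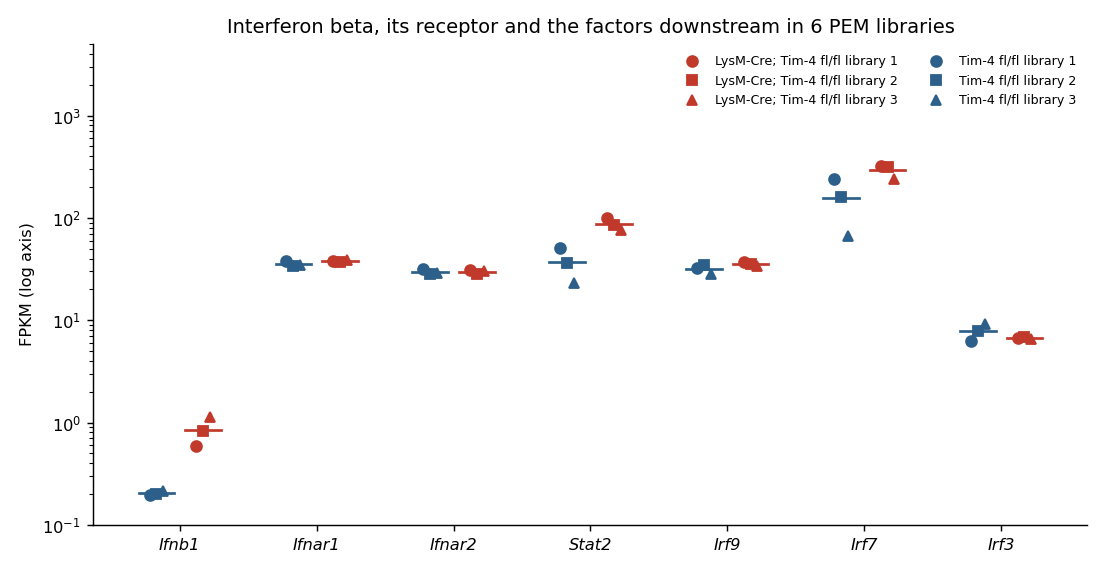
FPKM (y axis, logarithmic) of interferon-β, its receptor subunits, *Stat2*, *Irf9*, *Irf7* and *Irf3* in the 6 libraries, with colours, shapes and mean lines for control (blue) and CKO (red) libraries 1 to 3. *Ifnb1* and *Stat2* show no overlap between the groups, and *Irf7* shows the low value of control library 3.

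The other genes of the pathway were counted in 4 lists. Of 30 other antiviral interferon-induced genes, all 30 had a higher mean in the CKO libraries. Their median log2 fold change was 0.86, where that of the members was 0.87. *Parp14*, a large ADP-ribosyltransferase, alone passed the threshold upward (341.6 ± 27.5 against 199 ± 29.2 FPKM, SD, n = 3 each, log2 fold change 0.79, limma adjusted p = 0.0279) and none passed downward, where 4.74% of the tested genes did. *Parp14* did not pass without control library 2, CKO library 1 or CKO library 2 (adjusted p = 0.116, 0.127 and 0.129 in limma). In 18 of the 30 all CKO libraries were above all controls (11.1% of the tested genes), and in 30 of 30 control library 3 was the lowest of all 6 (13.3%). The largest log2 fold change was that of *Ifit2*, at 2.02 (limma adjusted p = 0.0771, 0.0173 with the replicate block, and 0.0335 at a log2 fold change of 1.33 without control library 3), and the smallest that of *Oasl1*, at 0.45 (adjusted p = 0.457), which fell to 0.03 without control library 3. With the block 10 of the 30 passed upward, against 3.9% of the tested genes. Members of the IFIT and OAS families resemble each other in sequence, so their reads may have been split between copies.

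Of the 10 tested genes that induce interferon after LPS, 4 had a log2 fold change above 0 and 0 passed in limma, with 3 at an unadjusted p of 0.05. The lowest of them was *Cd14*, the LPS co-receptor, at 346, 262 and 406 FPKM in the CKO libraries against 631, 554 and 484 FPKM in the controls. Its groups did not overlap, and its log2 fold change of -0.73 had a limma adjusted p of 0.0631 (0.0388 without control library 3). Among the 7 receptor and ISGF3 genes *Stat2* was the 1 that passed, and all 7 had a log2 fold change above 0. Among 6 feedback inhibitors 0 passed in limma (1 at an unadjusted p of 0.05). *Socs3*, a suppressor of cytokine signaling, had the largest log2 fold change at 1.37 (limma adjusted p = 0.139, and 0.0219 with the block), which was 0.80 without control library 3 (adjusted p = 0.153), and *Ptpn2*, a phosphatase, the smallest at -0.17 (adjusted p = 0.466). Over the 4 lists 2 of 53 tested genes passed, both upward, a share near the 2.57% of all tested genes.

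The relatives of the members outside the interferon response gave another picture. In 14 genes of other ubiquitin-like pathways the median log2 fold change was -0.14, 1 gene had a value above 0, and 0 passed in limma (3 at an unadjusted p of 0.05). *Ube2l3*, the closest relative of *Ube2l6*, was between 82.4 and 97.5 FPKM in the CKO libraries and between 76.6 and 90.1 FPKM in the controls (log2 fold change 0.15, limma adjusted p = 0.492). *Uba1* and *Uba6*, the E1 enzymes of ubiquitin, had log2 fold changes of -0.28 and -0.06 (adjusted p = 0.318 and 0.837 in limma), and that of *Uba6* turned to 0.07 after rescaling by the median of ratios, to 0.08 with voom and to 0.07 without control library 2. *Cmpk1*, the cytosolic counterpart of *Cmpk2*, had a log2 fold change of 0.13 (limma adjusted p = 0.684). Among 5 relatives of the effectors 0 passed in limma, and 0 at an unadjusted p of 0.05. The lowest was *Dnm1l*, a dynamin-like fission factor, at -0.31 (adjusted p = 0.219), and *Dnm2*, a dynamin, was at 0.02 and turned below 0 without control library 1, control library 2 or CKO library 3.

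**Figure D5:**
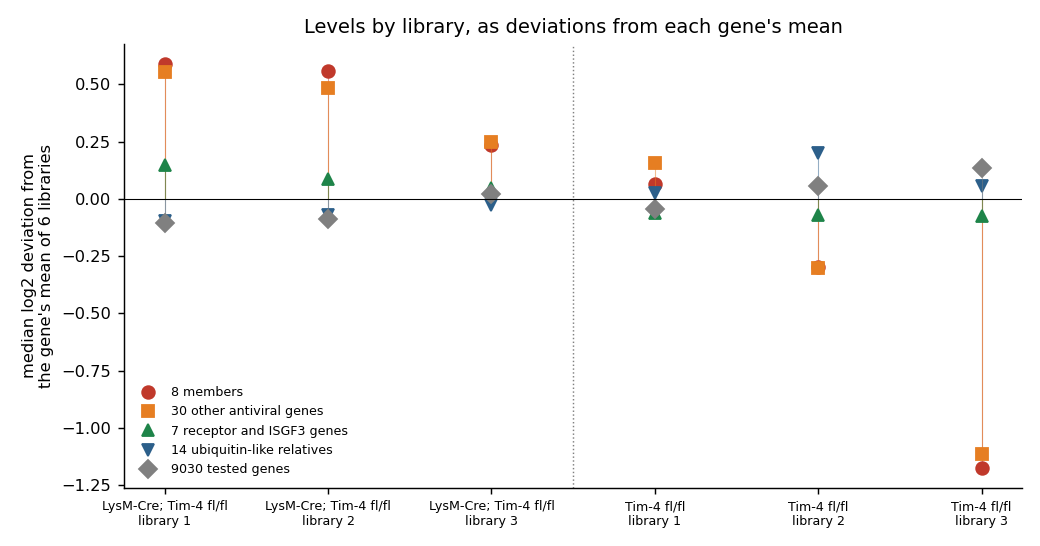
Median deviation of log2(FPKM + 1) from each gene's mean over the 6 libraries (y axis), for the 8 genes and for 4 reference groups in each library (x axis). The 8 genes and the other antiviral genes lie together in every library and reach their lowest point, -1.17 and -1.12, in control library 3, where the median of all tested genes is 0.13.

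The genes whose pattern over the 6 libraries was nearest to that of the members were sought among all tested genes, by the root mean square difference of standardized log2 values. They were *H2-T23*, *Trim21*, *Naa25*, *Oas3* and *Slfn9*, at 0.0377 to 0.0653, where the median tested gene was at 1.55 and the members themselves were at 0.0573 to 0.169. *H2-T23* encodes a nonclassical MHC class I molecule, *Trim21* an intracellular antibody receptor and ubiquitin ligase, and *Naa25* a subunit of an N-terminal acetyltransferase. *Trim21* was at 62.8, 66.8 and 52.8 FPKM against 46.5, 37.7 and 19.2 FPKM, in the library order that the choice by likeness fixes. Their log2 fold changes were between 0.51 for *Naa25* and 1.35 for *Slfn9*, and none passed the threshold (adjusted p from 0.0858 to 0.163 in limma). With the replicate block *Slfn9* and *Oas3* passed (adjusted p = 0.0257 and 0.0438), as they did without control library 1 (0.0492 each), and *Slfn9* also without control library 3 (0.0386). Without control library 3 the log2 fold changes of the 5 were between 0.29 for *Naa25* and 0.87 for *Slfn9*. *H2-T23*, *Oas3* and *Slfn9* belong to families of similar sequence, for which the assignment of reads is uncertain.

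Markers of other cells moved between the groups as well. The 5 B cell markers summed to between 2.78 and 5.52 FPKM in the CKO libraries and between 27.5 and 115 FPKM in the controls, and 5 of 5 tested fell past the threshold in limma. The 6 mast cell markers summed to between 1.89 and 2.27 against 38.2 and 49.3 FPKM, with 5 of 5 tested lower. The 8 markers of large resident peritoneal macrophages summed to between 10.2 and 20.7 against 90.4 and 247 FPKM, with 4 of 6 tested lower. *Timd4* itself is on this list, and without it the other 7 summed to between 9.86 and 20.3 against 89.2 and 227 FPKM, with 4 of 5 tested lower with and without the replicate block. Monocyte markers (between 260 and 494 against 443 and 3845 FPKM, 1 of 5 tested lower), neutrophil markers (41.3 to 72.6 against 159 to 172 FPKM, 2 of 3 lower) and T and NK cell markers (0.391 to 0.778 against 2.02 to 9.05 FPKM, 1 of 1 lower) had lower sums at one or both ends of their range. Markers of plasmacytoid dendritic cells summed to between 34.7 and 51.3 against 36.4 and 55.7 FPKM (1 of 4 tested lower), and those of mesothelial cells and fibroblasts to between 2.62 and 11.7 against 0.160 and 4.61 FPKM (0 of 2 tested past the threshold in limma). With the replicate block the number lower was 2 of 5 for monocytes, 1 of 3 for neutrophils and 4 of 5 for mast cells, and *Col1a1* of the fibroblast list passed upward (adjusted p = 0.0442). The 8 macrophage markers summed to between 2682 and 7277 against 9365 and 11148 FPKM, and 1 of 8 passed, upward. Without *Lyz2*, the locus of the Cre allele, the other 7 summed to between 2621 and 2876 against 2194 and 2665 FPKM, so the lower sum came from *Lyz2*. No marker found in the table was at 0 in every library. Control library 3, in which the members were lowest, also had the lowest median level among the controls in 6 of these 9 marker lists. The median log2 deviation from each gene's mean was 2.15, 1.74 and 0.09 in control libraries 1 to 3 for the B cell markers, 1.63, 1.17 and 0.18 for the large resident macrophage markers and 1.40, 1.10 and -0.37 for the monocyte markers, but 1.35, 1.31 and 1.45 for the mast cell markers. The part of these cells in the levels of the members was not tested.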

How the data were processed

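RNA of PEMs was sequenced in 6 libraries, 3 per group, grouped by title. The authors deposited 1 table with FPKM per gene and library. The group means in it (signal columns, as the authors deposited them) are read counts divided by DESeq2 size factors. Its fold changes, p-values and q-values are the authors' own and were not used. The submitters' processing notes name the build mm9. The aligner, counter and annotation are not given in the sources used here. Whole reads were recovered from FPKM and group means, with 100% of values within 0.01 of a whole number.

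Members, lists and tests were chosen with earlier results of these data known. They include all members, the interferon signal genes, the extremes and called genes of each list, and the 5 nearest profiles, and 2 genes that this rule names are not reported here. The test was limma 3.58.1 (R 4.3.3, eBayes with a trend) on log2(FPKM + 1), over 9030 genes with a mean of at least 1 FPKM in a group, with Benjamini-Hochberg adjustment and a threshold of 0.05. Adding 1 shrinks the fold changes of genes with low FPKM. The fit was tested on simulated data. Deviations of same-numbered libraries from their group means correlated at 0.109, 0.109 and 0.304, all above 0.1 (CKO library 2 with control library 1, of unlike number, at 0.291), so the replicate number was used as a block in an alternative fit. This check is the sole basis of the pairing and does not establish that libraries of the same number belong together. Promoter windows are from RefSeq (GRCm38.p6), used for sequence only.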

Additional observations from a re-analysis of the deposited data

How the results depend on the processing

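All 8 members kept a log2 fold change above 0 in every alternative. The number past the threshold in limma was 0 of 8 with no filter on low values, with at least 10 reads in every library, with a pseudocount of 0.1, after rescaling by the median of ratios and with voom on the recovered reads. With the replicate block it was 4, with unchanged log2 fold changes of 1.0 (*Uba7*), 1.21 (*Usp18*), 1.66 (*Rsad2*) and 1.61 (*Cmpk2*). The block changed no call of another member. Rescaling moved the median over all genes from -0.11 to 0.02 on the log2 scale and those of the members with it (1.80 for *Rsad2*, 0.72 for *Ube2l6*).

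With 1 library left out, the number of members past the threshold ran from 0 to 3 (3 without control library 1, 2 without control library 3), and that of all genes from 8 (without control library 2) to 1333 (without control library 3), against 660 with all libraries, 446 with no filter and 855 with the block. It was 30 and 63 without CKO libraries 1 and 2. The log2 fold changes then ran from 0.42 to 0.95 for *Isg15*, 0.57 to 1.34 for *Uba7*, 0.40 to 0.70 for *Ube2l6*, 0.30 to 0.79 for *Herc6*, 0.68 to 1.58 for *Usp18*, 1.11 to 1.99 for *Rsad2*, 1.05 to 1.97 for *Cmpk2* and 0.46 to 0.98 for *Bst2*. Of the 53 genes in the interferon lists, 2 passed with all libraries, 12 with the block, 1 after rescaling, 1 with voom, and between 0 and 13 with 1 library left out (0 without control library 2, CKO library 1 or CKO library 2, 1 without CKO library 3, 7 without control library 3, 13 without control library 1). The cause was not tested.

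The difference between the groups in the log2 ratio of *Cmpk2* to *Rsad2* turned from -0.04 to 0.013 without CKO library 1 (-0.0899 to 0.013 over all libraries left out). The same differences for the other pairs kept their sign, from 0.26 to 0.63 for *Usp18* to *Isg15*, 0.17 to 0.64 for *Uba7* to *Ube2l6* and -0.16 to -0.08 for *Herc6* to *Isg15*. Signs turned for *Dnm2* without CKO library 3 (-0.073), control library 1 (-0.017) and control library 2 (-0.13, against 0.20 without control library 3), for *Ifnar2* without CKO library 1 (-0.0083), control library 2 (-0.016) and control library 3 (-0.0065, against 0.067 without control library 1), and for *Uba6* (0.068 after rescaling, 0.082 with voom, 0.072 without control library 2). The edgeR test planned for the recovered reads was not run, and voom was the test on those reads.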

Other observations

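Among the 7313 tested genes with a RefSeq promoter window, 310 held the ISRE core letters GAAANNGAAA (4.24%). Their median log2 fold change was 0.04, against -0.11 for all 7313. Of the 310, 28 passed the threshold in limma, 19 of these upward. Over all 9030 tested genes, with or without a window, 2.57% passed upward and 4.74% downward. The 608 genes with the GAS letters TTCNNNGAA had a median of -0.09, with 36 past the threshold and 10 of these upward. The share called among the 7313 genes alone was not computed. These lists were made after the values had been seen, and no test was run on them.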
